A study of Mus musculus with 120 samples.

Results

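The 34 genes described here encode the liver's complement and coagulation proteins: the proteases, core proteins, lectins, pore proteins and regulators of complement, the vitamin K dependent and contact factors of coagulation, their cofactors, and the fibrinogen chains with plasminogen. They were chosen by name, and all 34 of the listed symbols were present among the 12252 genes of the count table. The rule names genes and uses no threshold on the values, but the list was drawn up with earlier results of these data known. The livers came from 12 male wild type C57BL/6J mice (WT) aged 8 to 12 weeks, and from 12 mice without Cry1 and Cry2 (CryKO, Cry1-/- Cry2-/-), the cryptochromes that act as repressors in the circadian clock. The sex, age, strain and housing of the CryKO mice are not given in the sources used here. The WT mice were kept in a light-dark cycle, with food given only at night for the last 3 days. In both genotypes 2 mice were sampled at each Zeitgeber time (ZT, hours after lights on) of 0, 4, 8, 12, 16 and 20. The labels name no other allele or agent. RNA was taken from nuclei, from cytoplasm and from unfractionated tissue, as poly(A)-selected RNA (nuclear NA, cytoplasmic CA) or as ribosome-depleted total RNA (nuclear NT, cytoplasmic CT, unfractionated UT), which gives 120 libraries, 12 per genotype and population. Reads of each gene were divided into pre-mRNA (I) and mature mRNA (E), so that NTI is the pre-mRNA of nuclear total RNA and CAE the mRNA of cytoplasmic poly(A) RNA.

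Complement is a cascade of plasma proteases and their substrates that marks microbes and ends in a pore in the target membrane. Coagulation is a parallel cascade that ends with thrombin cutting fibrinogen into fibrin, which plasmin later dissolves. Hepatocytes make most of these proteins and secrete them into blood. Several, among them the fibrinogen chains, C3 and fibrinogen-like 1, belong to the acute-phase proteins, whose synthesis rises in inflammation through interleukin-6 and the transcription factor STAT3.

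The libraries held 31.8 to 46.7 M counts in NT (1 M is 1000000 counts), 43.4 to 62.5 M in NA, 17.4 to 26.7 M in CA, 7.07 to 23.3 M in CT and 26.7 to 42.8 M in UT. The WT CT libraries (7.07 to 15.3 M) were the shallowest. Cry1 and Cry2, the targeted genes, did not give a clean check of the labels, since the sources used here do not say which exons were deleted and reads outside them check nothing. Cry2 in UTE was 1.94 to 3.64 log2 RPKM in WT and 1.29 to 2.00 in the libraries labelled CryKO, and Cry1 was 0.68 to 3.73 and 0.75 to 1.48, both with overlap. In NAE both genes went against the label, with Cry1 at -0.83 to 2.12 in WT and 2.09 to 2.79 in CryKO, and Cry2 at 1.56 to 3.53 and 3.16 to 3.63. Every direction given below for CryKO rests on the labels. Hepatocyte, Kupffer cell and endothelial markers were all measured (10 of 10 each), none at 0 in every library. WT ZT4 replicate 1, ZT16 replicate 2 and ZT20 replicate 2 stood apart from their partners in many of the genes described here, and results that rest on them are given with and without them. In CryKO UT, ZT20 replicate 1 had 14.4% of its counts in pre-mRNA against 27.01 to 33.8% in the others. In WT, ZT0 replicate 2 differed from its partner in Cry1, lower in CAE (2.12 against 4.32 log2 RPKM) and UTE (3.06 against 3.601) and higher in NAE (1.96 against 1.13).

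Together the 34 genes took 3.97 to 11.1% of all mRNA counts in WT UT (median 4.40%) and 1.41 to 5.78% in CA (median 1.97%). Levels per length in the cytoplasm are given here as log2 RPKM of CAE in WT (counts per kilobase of mRNA and per M counts, with a pseudocount of 0.5 counts and an offset per population that the study set), with the SD over 12 mice. The fibrinogen chains led: Fgg was at 12.18 ± 0.60 (rank 46 of 12171 genes), Fga at 11.35 ± 0.72 (rank 80) and Fgb at 11.08 ± 0.64. Kng1, the kininogen from which bradykinin is cut, was at 10.69 ± 0.36, vitronectin (Vtn), which binds the terminal complement complex, at 10.61 ± 0.51, and C3, on which the complement pathways converge, at 10.57 ± 0.82. These 3 lay within each other's spread. At the other end stood C2 (5.71, rank 2397), F7 (5.65), Pros1 (5.49) and Masp1 (5.31, rank 2860). Between the ends, the pore proteins ranged from 10.51 for C9 to 8.37 for C8b, and the vitamin K dependent enzymes from 9.83 for prothrombin (F2) to 5.65 for F7, which starts the extrinsic pathway.

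Nuclear and cytoplasmic poly(A) mRNA were compared first, which asks how each transcript is divided between the compartments after normalisation. In WT, 28 of 34 genes differed (edgeR quasi-likelihood test, adjusted p under 0.01 over all genes), 7 with relatively more nuclear mRNA and 21 with relatively more cytoplasmic mRNA. Of all genes tested, 42.8% were called higher in the nucleus and 36.9% lower. The median log2 nuclear to cytoplasmic difference was -1.10 over the 34 genes and 0.16 over all genes. The study's offsets, which put counts on a scale of molecules per cell, were not applied in this test. On its own scale the paper found the median transcript more abundant in the cytoplasm. Higher in the nucleus therefore means relative to other genes, here and below, and not more molecules there. Past a log2 difference of 2 there were 0 members higher and 5 lower (all genes 16.1% and 13.4%). Because bulk RNA was measured, fewer cells of a type and less RNA per cell cannot be told apart, here and below.

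The genes on the nuclear side were 4 complement proteases, C4b, Hc and the contact factor F11. CPM (counts per M) was scaled within each population on pre-mRNA and mRNA counts together, unlike the test. Overlap of CPM between NAE and CAE, here and in the next paragraph, is a description on that other scale. C4b, the C4 protein cleaved by C1s and MASP2, had 853 to 4690 CPM in NAE (median 1865) and 268 to 1147 CPM in CAE (median 498). The lowest nuclear value lay below the highest cytoplasmic value, and the log2 difference was 1.86 ± 0.28 (SE, adjusted p = 1.1e-06). Hc, the gene of complement C5, had 1261 to 4740 CPM (median 2046) in NAE and 396 to 1038 CPM (median 613) in CAE, without overlap (1.59 ± 0.21). Masp2, which cleaves C4 and C2, had 411 to 736 CPM (median 515) and 130 to 213 CPM (median 170), again without overlap (1.47 ± 0.11). C1s1, the protease that acts in the C1 complex, C2, Masp1 and F11 were also relatively higher in the nucleus (1.45, 1.26, 0.83 and 0.85). C4b, C1ra, C1s1 and Kng1 have near-identical copies, so the division of reads between copies is uncertain for these genes.

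On the cytoplasmic side were the pore proteins, the regulators and the fibrinogen group. Fgl1, a fibrinogen-related protein that hepatocytes secrete, had 14.2 to 307 CPM in NAE (median 34.6) and 220 to 3176 CPM in CAE (median 510). The ranges overlapped through the mice with high Fgl1, and the log2 difference was -3.66 ± 0.63 (adjusted p = 6.7e-06). Mbl2, a mannose-binding lectin, had 54.7 to 79.9 CPM (median 68.5) in NAE and 259 to 469 CPM (median 399) in CAE, and every cytoplasmic value lay above every nuclear value (-2.68 ± 0.11, adjusted p = 3.6e-18). C9, which forms the wall of the pore, had 107.8 to 299 CPM (median 158) and 660 to 1276 CPM (median 912), also without overlap (-2.65 ± 0.16). C8g, the gamma chain of C8, and Cfi, the protease that inactivates C3b and C4b, followed at -2.54 and -2.12. The 3 fibrinogen chains were at -1.75 (Fgb), -1.70 (Fgg) and -1.04 (Fga), and plasminogen (Plg) at -1.41.

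By role, 4 of 6 complement proteases were higher and 2 lower in the nucleus (median 1.04), against 2 higher and 2 lower of 5 core proteins and lectins (-0.53), 0 higher and 3 lower of 4 pore proteins (-2.13) and 0 higher and 2 lower of 2 regulators (-1.84). In coagulation 4 of 6 vitamin K dependent factors were lower (median -0.88), the contact system was split with 1 higher and 2 lower of 4, and all 5 genes of fibrinogen and fibrinolysis were lower (-1.70). Not called were F7 (0.36), F5 (-0.03), F12 (-0.05), C8a (-0.19), Pros1 (-0.27) and C3 (-0.53).

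The split ran between some neighbouring genes too. In the 7 pairs of members that lie within 50 kb of each other, Cfb and C2 (GRCm38 chr17:34856374-34898265, 85 bases apart on the same strand) were at -1.31 and 1.26. C1ra and C1s1 (chr6:124512405-124542359) were at -0.68 and 1.45, and F11 and Klkb1 on chromosome 8, the genes of factor XI and plasma prekallikrein, were at 0.85 and -0.94. F7 and F10 were at 0.36, not called, and -1.73. C8b and C8a were both below 0, at -1.72 and -0.19, the latter not called. The fibrinogen genes, side by side on chromosome 3, were all on the cytoplasmic side. The differences between neighbours were not tested.

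In CryKO livers 30 of 34 genes were called, 7 higher and 23 lower (all genes 42.9% and 39.5%), with a median of -1.39 over the 34 genes and 0.09 over all. C4b, Hc, Masp2, C1s1, C2, Masp1 and F11 were again on the nuclear side (1.76, 1.56, 1.52, 1.30, 0.39, 0.39 and 0.75). Fgl1 (-3.60), C9 (-2.78), Mbl2 (-2.69), Cfi (-2.59) and C8b (-2.51) were the lowest. C3 and F5, not called in WT, were at -1.16 and -0.55 in CryKO, and the ratios of both were not among those called to differ by genotype below. Past the log2 difference of 2 there were 0 higher and 10 lower (all genes 14.5% and 13.5%). The scale matters for the split of directions: on plain library size, which leaves the median gene at 1.33 in WT, 21 genes were called in WT, 14 higher and 7 lower, and the share of higher calls among all genes went from 53.7% to 79.1% (CryKO, 52.1% to 72.6%). On that scale C1ra, F2, Fga, Klkb1 and Proc in WT changed sign, so only their position relative to the median gene is described here.

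**Figure D1:**
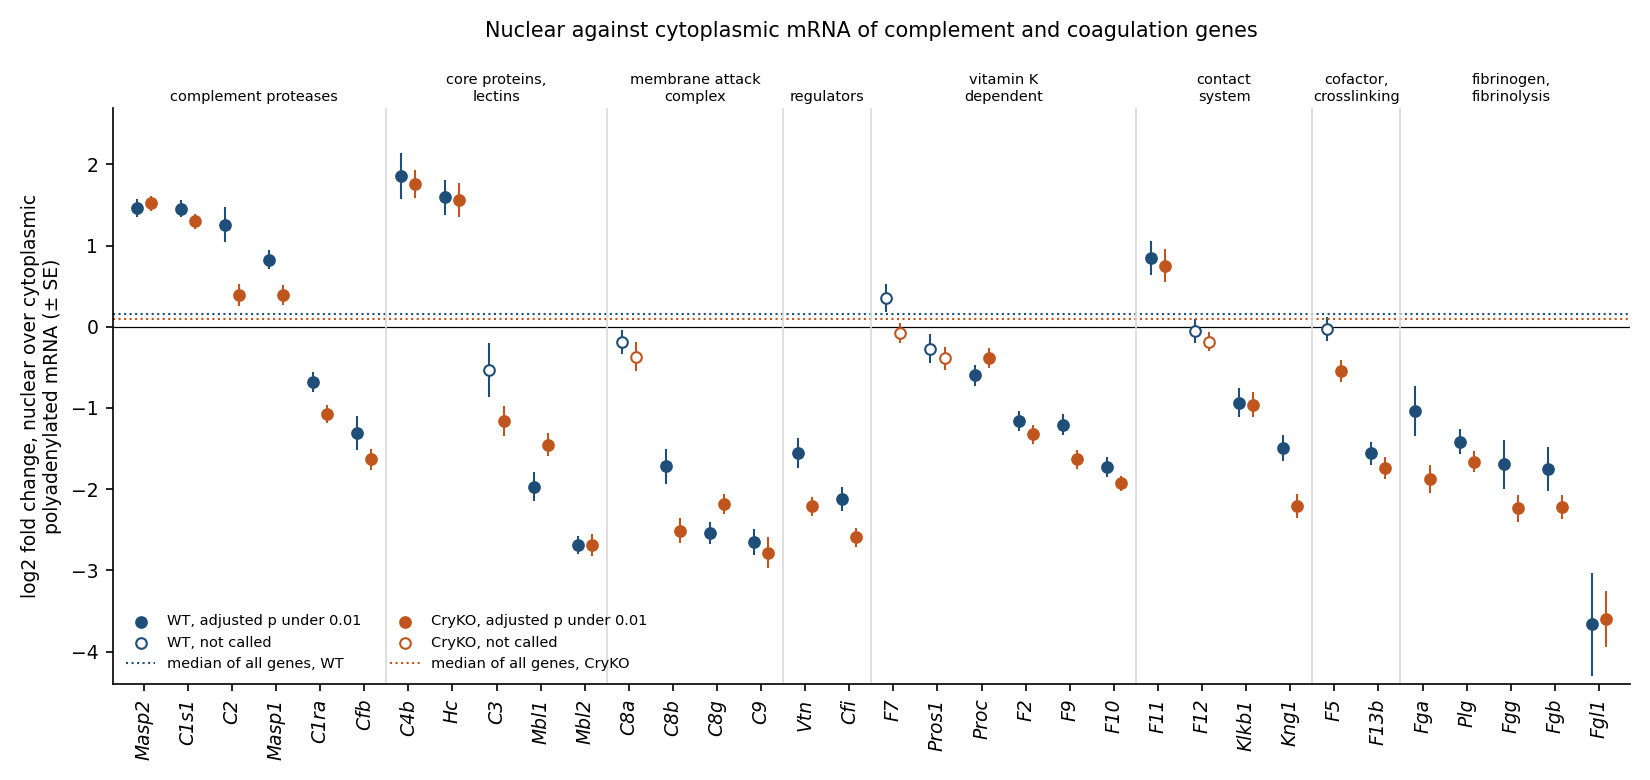
The log2 ratio of nuclear to cytoplasmic poly(A) mRNA (y axis, NAE against CAE) of each of the 34 genes (x axis), with the error of the fit, for WT and CryKO livers, 12 mice each. C4b, Hc, Masp2 and C1s1 lie on the nuclear side, and in WT Fgl1, Mbl2, C9 and C8g lie farthest on the cytoplasmic side.

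Transcripts of the same gene were not divided alike. Isoform shares came from estimated counts per transcript, which are uncertain where transcripts share most of their sequence. Among the 54 transcripts of 20 genes that could be compared, 26 in 16 genes differed in share from their gene between nucleus and cytoplasm in WT (adjusted p under 0.01). Among all transcripts tested 39.6% did, and the shares by transcript type are not given here. Transcripts that keep an intron, annotated as not coding, were called in 5 of 6 cases, and protein-coding ones in 16 of 41, counts not read as particular to these genes. Proc-205, such a transcript of protein C, the anticoagulant protease, made up 11.6 ± 2.8% of Proc mRNA in the nucleus (SD, n = 12) and 0.058% in the cytoplasm. C1s1-201 held 7.8 ± 0.92% and 0.25%, C2-202 8.2 ± 0.69% and 0.22%, and Hc-202 6.3 ± 0.35% and 0.46%. In each of these 4 genes the intron-keeping transcript took a far smaller share in the cytoplasm than in the nucleus. C4b-203, also annotated with a retained intron, went the other way, with 9.69 to 17.8% in the nucleus (median 12.4%) and 27.3 to 77.1% in the cytoplasm (median 53.8%). Vtn-204, the intron-keeping transcript that was not called, held 8.0% in the nucleus and 7.7% in the cytoplasm.

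The 2 transcripts annotated as targets of nonsense-mediated decay went opposite ways. C4b-202 was 3.9% of C4b mRNA in the nucleus and 0.11% in the cytoplasm, while Mbl1-201 was 24.9 ± 8.5% of Mbl1 mRNA in the nucleus and 70.5 ± 5.1% in the cytoplasm. Among the other transcripts, the share of C8g-201 was 2.4% against 55.98%, of Masp2-202 5.5% against 30.2%, and of Cfb-204 12.0% against 39.9%, all higher in the cytoplasm. Cfb-206 fell from 78.5% to 37.8%, and Kng1 moved from 40.8% to 13.7% for Kng1-201 and from 40.8% to 74.9% for Kng1-202.

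**Figure D2:**
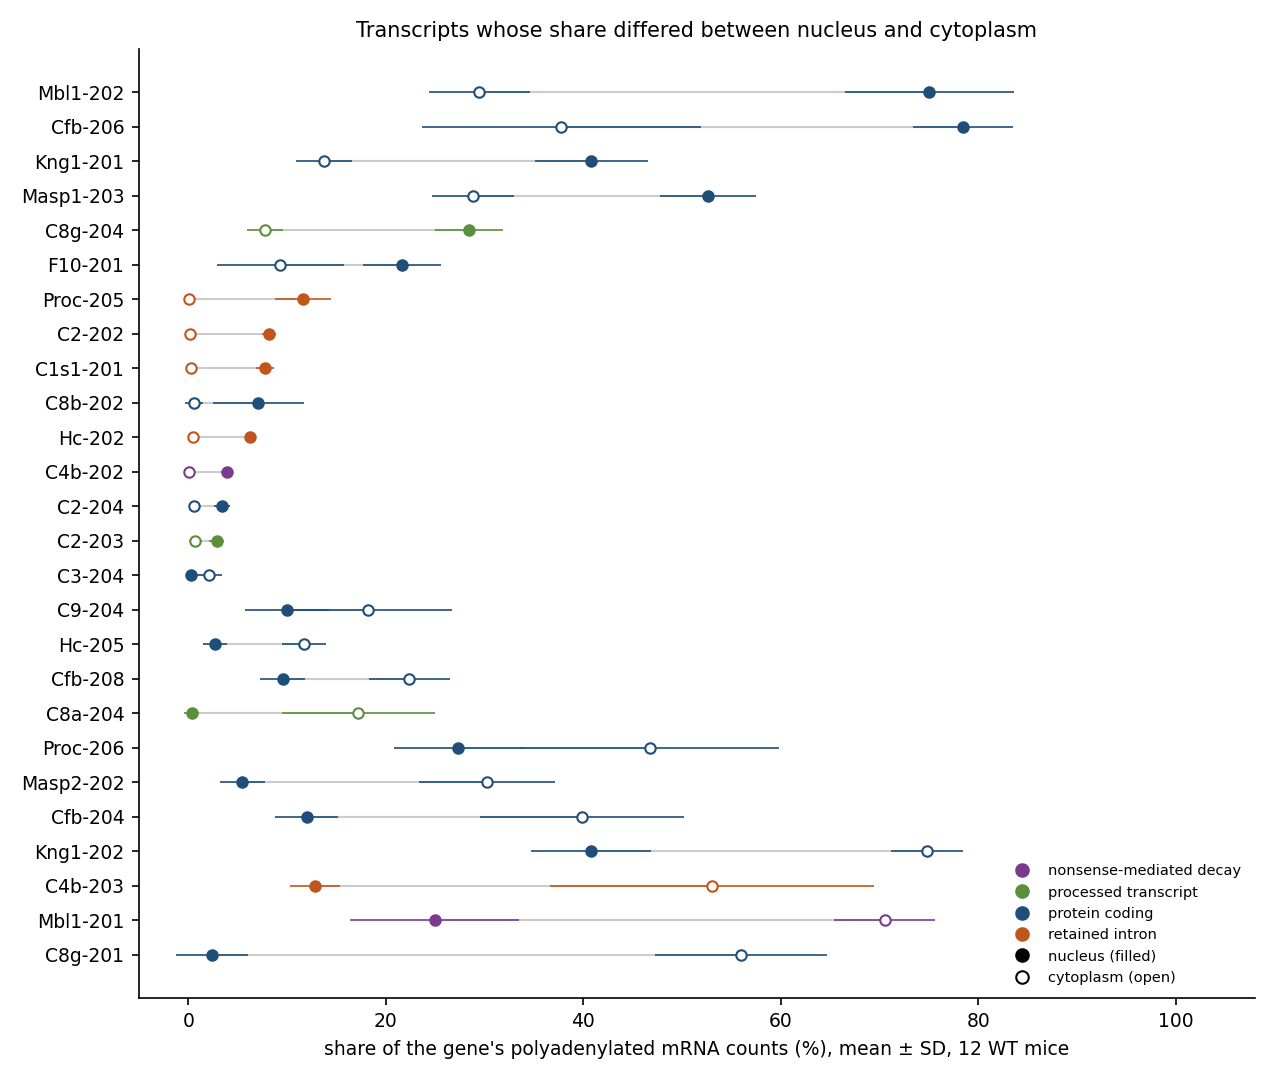
Share of the gene's mRNA (x axis, percent) for the 26 transcripts called in WT, with filled points for nuclear and open points for cytoplasmic poly(A) RNA, means of 12 mice. Intron-keeping transcripts of Proc, C1s1, C2 and Hc sit near 0 in the cytoplasm, while C4b-203 and Mbl1-201 are larger there.

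The ratio of total to poly(A)-selected pre-mRNA in the nucleus, log2 NTI over NAI on the scale with these offsets, was compared with gene length, since a transcript is polyadenylated only once the polymerase has passed the whole gene. The 34 genes had a median of 0.65 in WT and 1.14 in CryKO, against 1.75 and 1.96 over all genes, and 28 of 34 lay below the all-gene median in WT. The lowest were C8g at -1.342 ± 0.26 (SD over 12 mice, gene length 3.07 kb) and Vtn at -0.89 ± 0.06 (3.23 kb). The highest were C8b at 2.57 ± 0.44 (38.2 kb) and Pros1 at 2.23 ± 0.35 (75.04 kb). Short genes had the low ratios. Over the 34 genes the ratio and log2 length had r = 0.78 and rho = 0.74, a description over genes that share libraries, the same r in both genotypes. Mbl1 stood above the trend (1.55 at 8.14 kb) and C2 below it (0.10 at 35.7 kb).

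**Figure D3:**
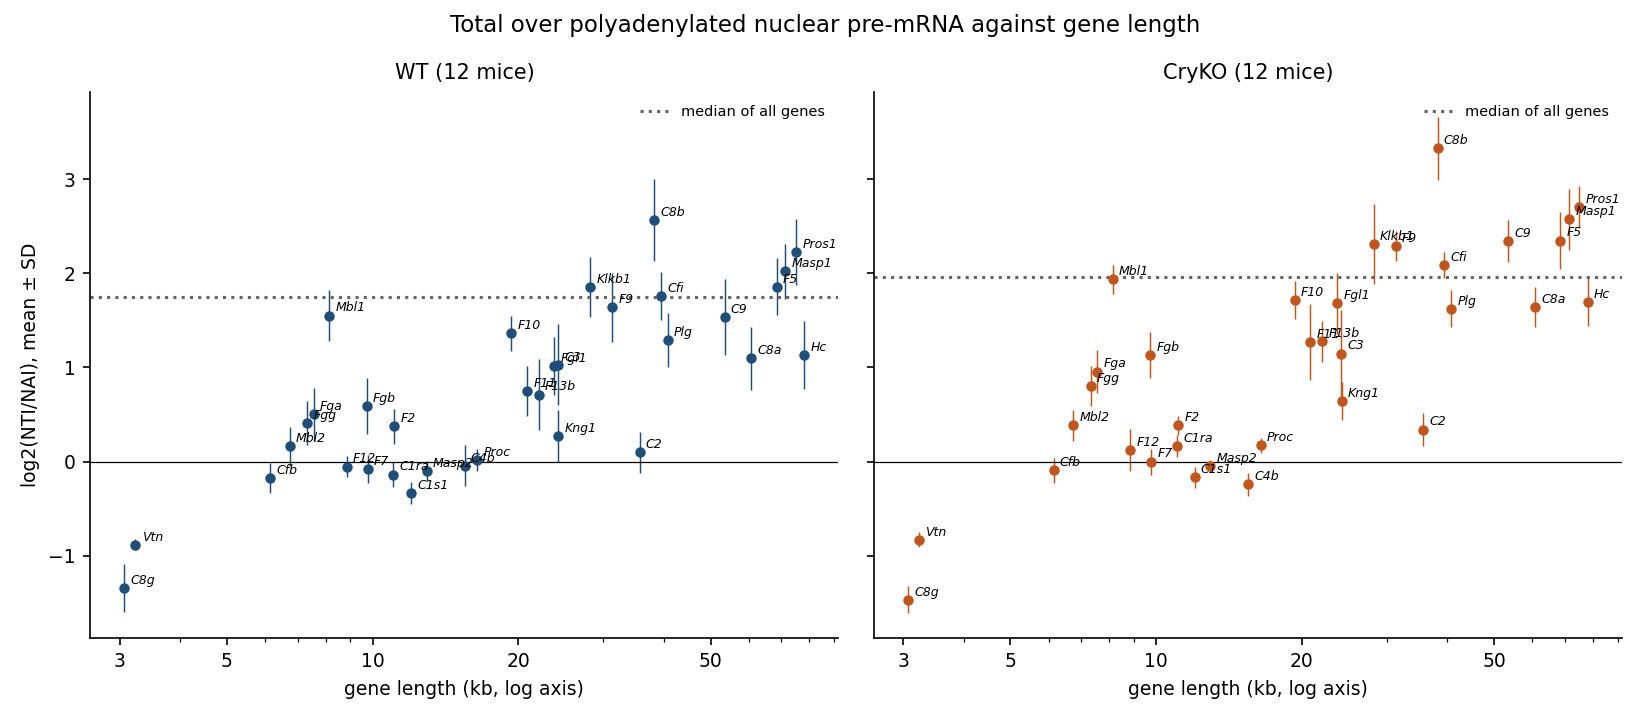
Log2 ratio of nuclear total to nuclear poly(A) pre-mRNA (y axis) against gene length in kb (log x axis) for the 34 genes, mean of 12 mice per genotype. C8g and Vtn are lowest among the short genes and C8b highest.

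Mice sampled at the same time differed widely in the acute-phase members. Fgl1 pre-mRNA in NTI ran from 3.42 to 526 CPM over the 12 WT mice (median 50.5), a 154-fold range, and Fgl1 mRNA in UTE from 57.1 to 1153 CPM (median 131). At ZT4 the UTE values of the pair were 1153 and 160 CPM, at ZT16 139 and 572 CPM, and at ZT20 124 and 881 CPM. The high mouse of each of these pairs was also the higher one in NTI, with 526 against 10.1 CPM, 386 against 17.9 CPM and 482 against 97.7 CPM, so the difference was present in nuclear pre-mRNA as in mature mRNA. At ZT12 the pair differed in Fgl1 pre-mRNA (3.42 and 234 CPM) and less in UTE mRNA (120 and 274 CPM). In CryKO, Fgl1 in UTE ran from 85.7 to 524 CPM (median 168).

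C3 in UTE ran from 5513 to 26340 CPM (median 6301), with the top value in ZT4 replicate 1 and the next in ZT20 replicate 2. Fga ran from 2674 to 10218 CPM (median 3846), and Fgb and Fgg reached 8168 and 6443 CPM in the same mouse. Relative to its partner, that mouse had 7.22-fold more Fgl1, 4.45-fold more C3, 2.64-fold more Fga and 2.00-fold more Vtn. At ZT20 replicate 2 exceeded replicate 1 by 7.11-fold in Fgl1, 2.52-fold in C3 and 2.83-fold in Fga. Of the 34 genes 22 were highest in ZT4 replicate 1 in UTE (16.4% of all genes were), and 16 had these 3 mice as the 3 highest (2.77% of all genes). These mice were singled out because they are high in these genes, so the counts are a description. UTE had the most of the 7 measures: 12 genes were highest in ZT4 replicate 1 in CAE (15.04% of all genes), 13 in CTE (14.5%), 8 in NTI (19.4%), 4 in NAE (17.1%), 4 in UTI (7.14%) and 0 in NAI (3.22%). Having these mice as the 3 highest was the case for 8 genes in CAE (1.94% of all), 11 in CTE (2.06%), 7 in NAE (1.76%), 6 in NTI (0.964%), 6 in UTI (0.767%) and 3 in NAI (0.753%). C8b, C8g, Mbl2, F13b and Proc were lowest in ZT4 replicate 1 in UTE, as were 17.1% of all genes. The summed UTE level of a list of acute-phase genes (9 of 20 measured) was 44599 CPM in ZT4 replicate 1 and 4886 CPM in the lowest. In ZT4 replicate 1 hepatocyte markers summed to 32213 CPM, the lowest of 12, and Kupffer cell markers to 648 CPM, the highest. Abundant genes weigh most in such sums. The median log2 deviation per gene from the WT median was -0.26 for hepatocyte markers (rank 11 of 12) and 1.15 for Kupffer cell markers. Cholangiocyte markers (3 measured) also had their highest sum in that mouse, and stellate cell and blood markers their lowest. The part of these in the spread was not tested.

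**Figure D4:**
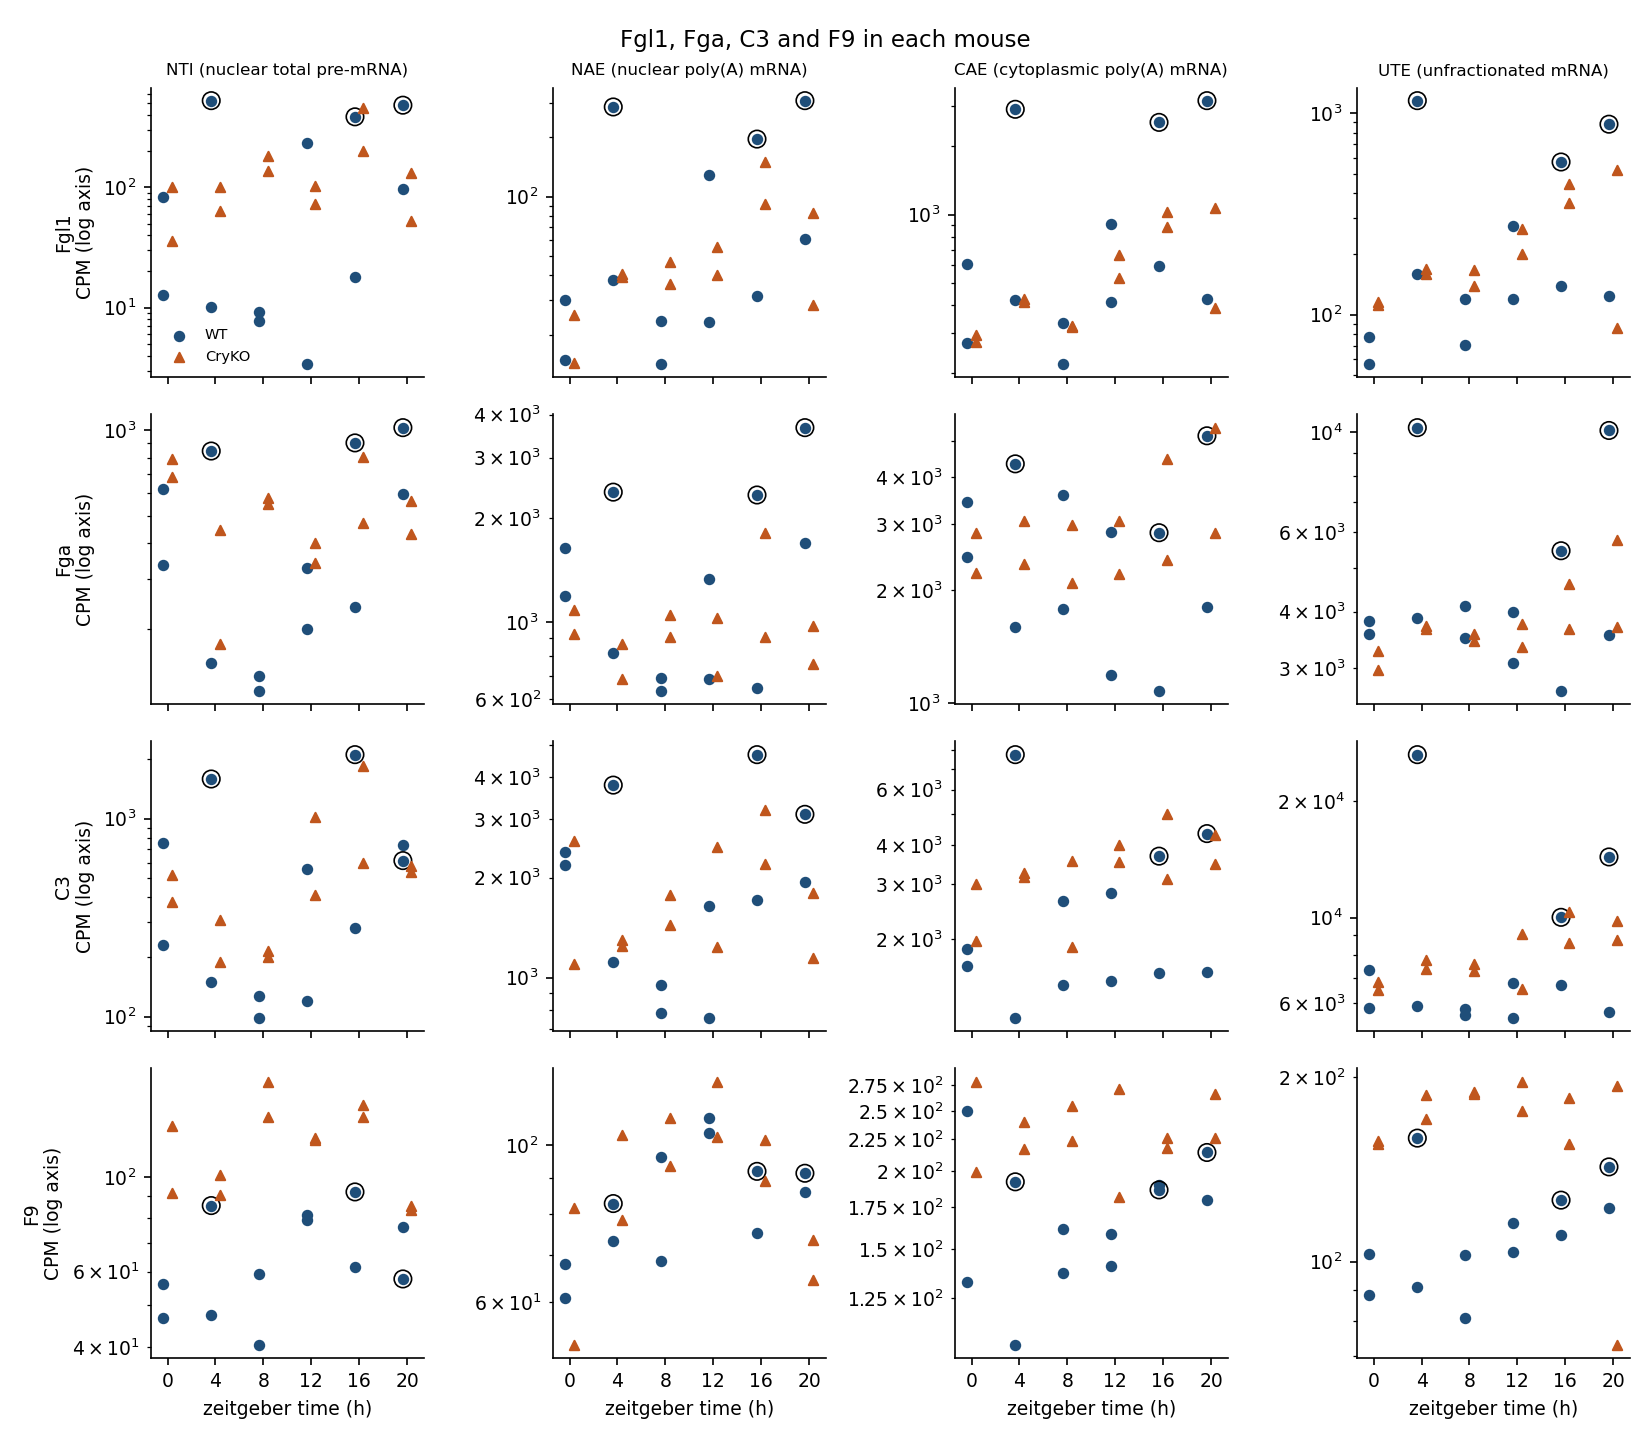
CPM (y axis, log scale) of Fgl1, Fga, C3 and F9 by ZT in nuclear pre-mRNA (NTI), nuclear mRNA (NAE), cytoplasmic mRNA (CAE) and unfractionated mRNA (UTE), a point per mouse, with the 3 WT mice that stand apart circled. Fgl1 in WT runs from 57.1 to 1153 CPM in UTE, and the circled mice hold its 3 highest values there.

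The 250 bases before the start sites of the fibrinogen chains and F9 are shown because these genes moved together across mice or differed by genotype. The sequences are from RefSeq (GRCm38.p6), 5′ to 3′ on the gene's strand, and capitals mark matches to TTCNNNGAA, the letters that STAT proteins read, and to GTTAAT or its reverse complement ATTAAC, a core of the site of the hepatocyte factor HNF1. The 2 motifs did not overlap in these windows.
Fga, chr3:83025903-83026152, plus strand: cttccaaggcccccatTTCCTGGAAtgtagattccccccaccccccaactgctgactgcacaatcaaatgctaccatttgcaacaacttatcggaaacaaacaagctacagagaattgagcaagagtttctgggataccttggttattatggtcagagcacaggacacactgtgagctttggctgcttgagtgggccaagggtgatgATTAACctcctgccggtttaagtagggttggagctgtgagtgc
Fgb, chr3:83049864-83050113, minus strand: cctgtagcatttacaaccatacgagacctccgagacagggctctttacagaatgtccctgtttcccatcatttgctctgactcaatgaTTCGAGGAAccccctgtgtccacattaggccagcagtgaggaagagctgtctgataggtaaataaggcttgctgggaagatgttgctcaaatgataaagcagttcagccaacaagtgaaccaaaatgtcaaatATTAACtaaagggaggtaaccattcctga
Fgg, chr3:83007474-83007723, plus strand: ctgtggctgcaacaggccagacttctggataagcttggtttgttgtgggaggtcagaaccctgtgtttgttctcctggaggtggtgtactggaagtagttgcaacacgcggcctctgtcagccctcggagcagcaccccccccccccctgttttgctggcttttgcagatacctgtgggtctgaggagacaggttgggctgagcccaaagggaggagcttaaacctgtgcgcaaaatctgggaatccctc
F9, chrX:59999214-59999463, plus strand: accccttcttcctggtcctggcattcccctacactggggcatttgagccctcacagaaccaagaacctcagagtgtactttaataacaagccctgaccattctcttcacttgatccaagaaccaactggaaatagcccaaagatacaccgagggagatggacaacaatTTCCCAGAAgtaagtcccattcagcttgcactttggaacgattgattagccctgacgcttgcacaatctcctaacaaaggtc
Both strands were searched. Fga held TTCCTGGAA from -234 to -226 of the start, Fgb TTCGAGGAA from -162 to -154 and F9 TTCCCAGAA from -82 to -74, and Fgg held neither motif. Among 25 of 34 genes with a window of 250 bases before to 50 after the start, 8 held TTCNNNGAA (9.55% of all genes) and 9 held GTTAAT (8.24%). The clock motif CACGTG was in 0 of 25 (8.09% of all genes) and TTATGTAA in 0 of 25 (1.11%).

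Time of day was tested with a 24 h cosine in each population. By edgeR's quasi-likelihood test 0 of 34 genes were rhythmic in WT NTI (all genes 0.563%), NAE (2.25%), CAE (2.91%) and UTE (10.7%), and 1 was in CTE (11.1%). At an unadjusted p under 0.05 there were 9 in NTI (11.7% of all genes), 6 in NAE (16.5%), 1 in CAE (19.9%), 1 in UTE (29.8%) and 4 in CTE (30.3%). DESeq2 called F5 and Mbl1 in NTI (2 genes, against 4.09% of all genes by the same tool), C2, C9, Mbl1 and Plg in NAE (4, 7.93%), 0 in CAE (8.49%), C8b in UTE (1, 19.7%) and F13b, F5 and Klkb1 in CTE (3, 19.1%). The gene called in CTE was F13b, the carrier subunit of the fibrin-crosslinking factor XIII, which held 133 to 319 CPM (median 201), with its lowest values at ZT4 (154 and 133 CPM) and its highest at ZT16 (256 and 319 CPM). Its range from trough to peak was 0.83 on the log2 scale with the peak at 15.3 h (adjusted p = 0.030). The call was lost without each of 5 mice (adjusted p = 0.051 to 0.107), among them both at ZT12 and both at ZT16. Without WT ZT4 replicate 1, 8 of the genes were called in CTE (C8a, F13b, F5, F9, Fgl1, Hc, Klkb1 and Pros1, beside 22.7% of all genes), with Fgl1 at a range of 3.08 and a peak at 17.4 h, and without all 3 mice that stood apart 2 were (F9 and Pros1). The share of all genes without the 3 mice is not given here, so that count is not read as particular to these genes.

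In CryKO 0 of 34 were rhythmic in NTI (all genes 0.027%), NAE (0.0169%), CAE (0%) and UTE (0.0512%) by edgeR. At an unadjusted p under 0.05 there were 7 in NTI (11.3% of all genes), 4 in NAE (12.2%), 1 in CAE (6.47%) and 4 in UTE (12.4%). DESeq2 called 2 in NTI (C3 and Vtn, against 3.2% of all genes), 2 in NAE (F9 and Hc, 2.49%), 1 in CAE (Fgl1, 0.591%) and 2 in UTE (F11 and Kng1, 3.28%). The difference in rhythm between the genotypes was called in 0 of 34 in NTI (0.359% of all genes), NAE (0.7%), CAE (0.725%) and UTE (1.88%), with 2 (6.52% of all genes), 4 (9.77%), 0 (12.8%) and 0 (14.9%) at an unadjusted p under 0.05. DESeq2 called 0 in each (all genes 1.16%, 2.15%, 2.3% and 4.63%).

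The mean level over the day was compared between the livers labelled CryKO and WT. In UTE 15 of 34 genes differed (adjusted p under 0.05), 4 higher and 11 lower (all genes 22.7% and 26.1%), with a median of -0.15 against -0.00 over all genes. F12, the factor that starts the contact system, had 332 to 383 CPM in WT (median 354) and 220 to 302 CPM in CryKO (median 240), with no overlap (log2 difference -0.55 ± 0.05, adjusted p = 7.3e-08). Proc had 265 to 350 CPM (median 291) and 166 to 261 CPM (median 215), again without overlap (-0.46). F9, the factor missing in haemophilia B, had 80.9 to 159 CPM (median 107.1) in WT and 73.2 to 197 CPM (median 181) in CryKO (0.60 ± 0.13). The 73.2 CPM came from CryKO ZT20 replicate 1, the library low in pre-mRNA, and the next lowest CryKO mouse had 156 CPM. Without that library the F9 difference was 0.69. F13b was also higher (82.2 to 130 CPM in WT, median 112.3, and 110 to 179 CPM in CryKO, median 161, 0.46 ± 0.07), as were Kng1 (0.24) and Klkb1 (0.23). C4b (-0.57), Vtn (-0.47), C9 (-0.41), C8g (-0.38), C8b (-0.30), F11 (-0.28), C1ra (-0.27), F10 (-0.24) and F2 (-0.23) were lower. Klkb1 was no longer called without WT ZT4 replicate 1, ZT4 replicate 2, ZT16 replicate 2 or ZT20 replicate 2.

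In cytoplasmic mRNA 2 of the 4 pore proteins, C9 and C8g, were lower in CAE, while C8a was at 0.02. In CAE 6 genes differed, 3 higher and 3 lower (17.4% and 18.7% of all genes). C9 had 660 to 1276 CPM in WT (median 912) and 236 to 743 CPM in CryKO (median 533), with an overlap of the lowest WT and highest CryKO mice (-0.80 ± 0.16). C8g had 277 to 630 CPM (median 377) and 201 to 411 CPM (median 225), overlapping (-0.70 ± 0.12), and Mbl1, the other mannose-binding lectin, had 234 to 507 CPM (median 322) and 163 to 287 CPM (median 246, -0.53 ± 0.13). C2 (0.66 ± 0.21), Kng1 (0.47 ± 0.14) and F9 (0.46 ± 0.12) were higher. CTE gave 3 higher (F9, Kng1 and Masp2) and 5 lower (C9, C8g, C8b, Mbl1 and Proc; all genes 19.6% and 20.5%). In NAE 0 were higher and 4 lower (8.06% and 9.11%): C9 (-0.87 ± 0.14, adjusted p = 4e-04, with 107.8 to 299 CPM in WT and 53.99 to 167 CPM in CryKO), C8b (-0.81 ± 0.19, with 54.95 to 231 CPM in WT and 43.5 to 107.8 CPM in CryKO), Vtn (-0.39) and Masp1 (-0.36). Vtn lost its call without WT ZT12 replicate 2, ZT16 replicate 2 or ZT20 replicate 2, and 7 genes were called without WT ZT16 replicate 1 or CryKO ZT16 replicate 2. The shares of all genes in these settings are not given here, so that count is not read as particular to these genes. The median of the 4 pore proteins was -0.55 in NAE, -0.41 in CAE, -0.52 in CTE and -0.34 in UTE, with C8a at -0.13, 0.02, 0.02 and 0.04, not called.

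Pre-mRNA in NTI gave 9 higher and 0 lower (all genes 48.9% and 3.65%), but the median of all genes was itself raised by 0.34 on this scale, and the members' median was 0.26. F9 had 40.5 to 92.2 CPM in WT (median 60.4) and 83.5 to 167 CPM in CryKO (median 123, log2 difference 0.85), and F13b 29.7 to 75.3 CPM (median 51.4) and 60.4 to 113.3 CPM (median 82.3, 0.79), both with an overlap between the highest WT and lowest CryKO mice. C8a, F10 and F5 were no longer called without WT ZT0 replicate 2 (6 called). When the pre-mRNA counts were scaled on themselves, 7 were called: F9 (0.52) and F13b (0.46) stayed higher, and C4b (-0.69), Vtn (-0.52), C8g (-0.44), C1s1 (-0.28) and F12 (-0.23) were lower, while F10 changed sign (-0.058, not called). The shares of all genes on that scale and without WT ZT0 replicate 2 are not given here. Neither count is read as particular to these genes. Over the 5 populations F9 was higher in 4, C9 lower in 4, and C8b and C8g lower in 3. C3, Cfb, Cfi, C1s1, F7, Fga, Fgb, Fgg, Fgl1, Hc, Mbl2 and Pros1 were called in none. The populations of a genotype share their mice.

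For the acute-phase members the WT spread was wide. C3 in CAE had 1128 to 7750 CPM in WT (median 1754) and 1893 to 5019 CPM in CryKO (median 3367), a log2 difference of 0.39 ± 0.26 (adjusted p = 0.25). The CryKO values, lowest included, lay above the WT median, and the highest value of all was WT ZT4 replicate 1. Fgb in CAE had 1920 to 7416 CPM (median 3853) and 2305 to 4978 CPM (median 3253), at -0.23 ± 0.22, and in NAE the Fgb difference was -0.59 ± 0.21 (adjusted p = 0.058). Fgl1 was at -0.76 ± 0.35 in CAE (adjusted p = 0.097). In UTE the acute-phase list summed to 3911 to 8469 CPM in CryKO against 4886 to 44599 CPM in WT. Markers of other cell types moved with genotype in some of these libraries. Of 10 endothelial markers 8 were higher and 0 lower in UTE (median 0.50), against 0 and 2 in CTE (0.08) and 1 and 1 in CAE (0.14). Of 9 stellate cell markers 0 were higher and 8 lower in CTE (median -0.80), against 2 and 3 in UTE (0.01) and 0 and 4 in CAE (-0.34). Of 10 hepatocyte markers 1 was higher and 2 were lower in UTE, 4 and 2 in CTE and 3 and 0 in CAE. Of 10 Kupffer cell markers 1 was higher and 0 lower in UTE (median -0.10), 0 and 3 in CTE (-0.42) and 0 and 3 in CAE (-0.37). Of all genes 22.7% and 26.1% were called in UTE, 19.6% and 20.5% in CTE and 17.4% and 18.7% in CAE. The part of these in the differences was not tested. Without the 3 WT mice that stood apart the counts were 12 and 0 in NTI, 1 and 2 in NAE, 6 and 3 in CAE, 9 and 3 in CTE and 8 and 10 in UTE (higher and lower). The shares of all genes in that setting are not given here, so the counts are not read as particular to these genes. Those mice were left out for their high Fgl1 and also hold the 3 highest C3 values in CAE, CTE and UTE, so for such genes leaving them out lowers the WT mean by construction, and nothing is read from it.

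**Figure D5:**
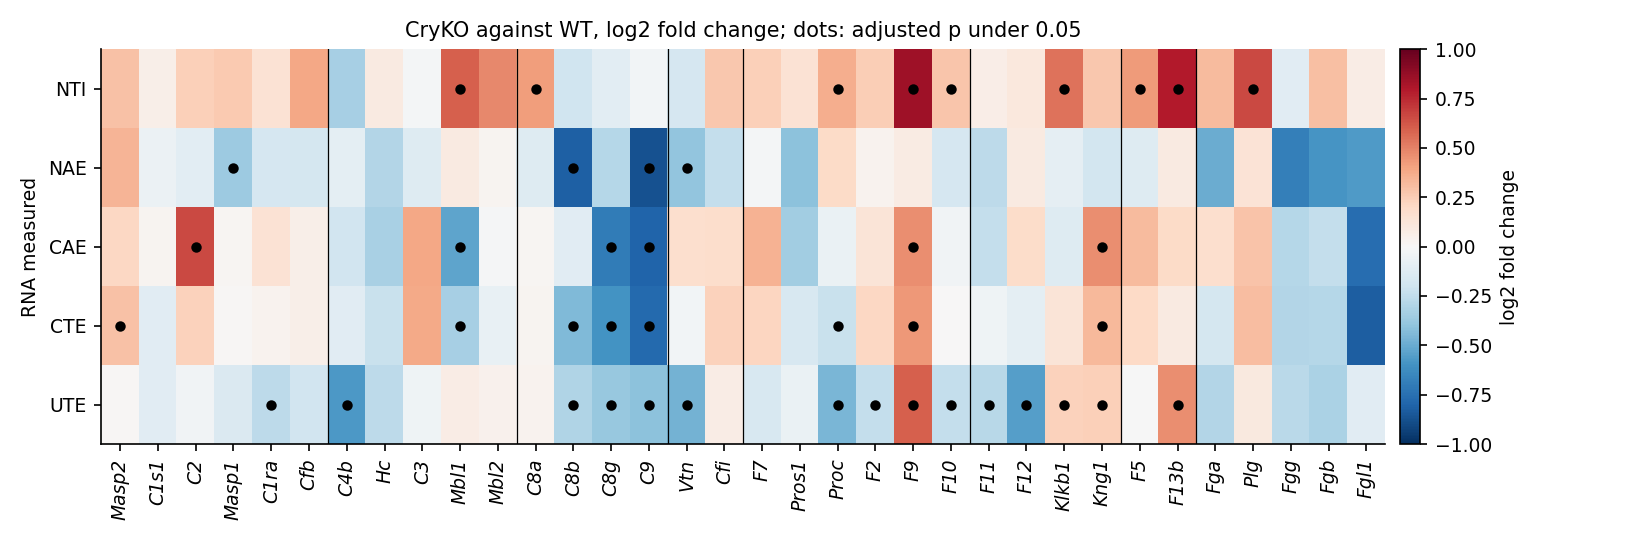
Heat map of the log2 difference between CryKO and WT livers for the 34 genes (columns, by role) in 5 populations (rows), 12 mice per genotype, with dots at an adjusted p under 0.05. F9 is higher in 4 rows and C9 lower in 4.

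The nuclear to cytoplasmic ratio itself differed by genotype in 0 members higher and 2 lower (all genes 3.39% and 4.31%). C2, which with C4b forms the C3-cleaving enzyme, had a ratio lower by 0.84 on the log2 scale in CryKO (adjusted p = 0.037). Its NAE level was 64.1 to 234 CPM in WT (median 146) and 100.8 to 169 CPM in CryKO (median 134), and its CAE level 21.5 to 91.4 CPM (median 52.4) and 50.1 to 123 CPM (median 81.4), with overlapping ranges in both compartments. Kng1 differed by -0.69 (adjusted p = 0.038), with 965 to 2058 CPM (median 1481) in WT CAE and 1540 to 2512 CPM (median 1998) in CryKO. With the replicate block 8 genes were called, 2 higher and 6 lower, and plain library size gave more calls still. The shares of all genes in these settings are not given here, so the counts are not read as particular to these genes. Without the 3 WT mice 0 were called (C2 adjusted p = 0.11, Kng1 adjusted p = 0.096).

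Other genes of the 2 pathways, from lists that hold none of the 34, moved in the same comparisons. Of complement genes 24 of 28 differed between nucleus and cytoplasm in WT, 9 higher and 15 lower (median -0.65), and of all genes 79.6% did, with C4a at 4.14 and Cd46, a membrane regulator, at 4.13 on the nuclear side and Cfhr2 at -2.81 on the cytoplasmic side. Of coagulation genes 22 of 27 did, 11 in each direction, with Adamts13, the protease that cuts von Willebrand factor, at 3.52 and Cpb2, the fibrinolysis inhibitor TAFI, at -2.78. In CryKO against WT in UTE 11 of 28 complement genes (5 higher, 6 lower) and 12 of 27 coagulation genes (7 higher, 5 lower) were called, with C6, another pore protein, at -0.83 and F8, the cofactor of F9, at 0.92. Of all genes 48.8% were called in that comparison, more than in either list. The complement values in UTE ran from -3.28 to 0.87, so C6 was not the lowest. The lowest complement value was -4.09 in NTI and -2.92 in NAE. The genes at these ends are not named here. F8 is made largely by endothelial cells, whose markers were higher in CryKO UTE (8 of 10), and their part in its difference was not tested. In CAE 10 of 25 complement genes were called (36.1% of all genes), all 10 lower (18.7% of all genes), among them Cd59a (-0.88), which blocks the pore. The lowest complement value in CAE was -1.48. Of 10 Kupffer cell markers 0 were higher and 3 lower in CAE (median -0.37), and their part was not tested. Among regulators of the acute phase 9 of 19 were called in UTE (3 higher, 6 lower, beside the same 48.8% of all genes), with Socs3, the feedback inhibitor of STAT3, at -1.42. C4a shares reads with C4b, and its values are uncertain.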

How the data were processed

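Stranded single-end reads were quantified by the authors in kallisto (version 0.46.0), whose index held mouse transcripts before and after splicing (GRCm38) beside rat ones for an unused spike-in. They deposited estimated counts per gene and transcript, filtered on isoform fraction. The 120 libraries were matched to genotype, population, ZT and replicate by their titles. Of 12383 deposited gene rows, 131 repeats were merged. Estimated counts were rounded and fitted with edgeR 4.0.16 (quasi-likelihood test, R 4.3.3), with TMM effective library sizes from the mRNA. A gene was kept if 0.5 or more of the libraries reached 10 counts, and p-values were adjusted over all genes (Benjamini-Hochberg). CPM used TMM sizes found within each population, scaled to its mean total of pre-mRNA and mRNA counts. The test of nucleus against cytoplasm used sizes from the mRNA of both compartments together. CPM of NAE and of CAE are therefore not on the scale of that test (pre-mRNA was a median 42.55% of counts in WT NA and 1.36% in WT CA). Calls required an adjusted p under 0.05, or 0.01 for nucleus against cytoplasm and for isoforms (diffSpliceDGE). The rhythm test was a 24 h cosine. DESeq2 1.42.0 and limma 3.58.1 were also used, with Python 3.11.15. The fits were tested on simulated data. Genes named in the text are members, or members of lists; the members and lists were chosen with earlier results of these data known. Same-numbered libraries deviated together in WT (nuclear with cytoplasmic mRNA, r = 0.24 to 0.60 at all times). In CryKO they did at 5 of 6 times (0.15 to 0.61) but not at ZT0 (-0.26). The same differences between replicates were correlated between WT and CryKO, which are different mice. There r reached 0.37 (NAE, ZT8) and -0.42 (CAE, ZT8). The lower values above therefore do not establish pairing, and pairing by number is uncertain, most of all at CryKO ZT0. The main tests across compartments held no mouse term in either genotype and treated libraries of a mouse as independent. The replicate block added a mouse term to them in both genotypes. Precision is limited by 2 mice per genotype and time, and p-values measure the spread between these mice.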

Additional observations from a re-analysis of the deposited data

Results flagged for a closer look

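The nuclear to cytoplasmic ratio differed by genotype in C2 and in Kng1, by the interaction of compartment and genotype (edgeR, adjusted p = 0.037 and 0.038). The difference, CryKO minus WT on the log2 scale, was -0.84 for C2 and -0.69 for Kng1. Neither was called without the 3 WT mice that stood apart (-0.78 and -0.63), a setting chosen after seeing the data. Its cause was not tested.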

How the results depend on the processing

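Of 120 counts recomputed under another setting 18 moved by over 1.5 times, and of 553 values of a named gene under another setting 473 kept call and direction while 72 lost the call and 8 changed sign. The changes of sign came from plain library size, in WT nucleus against cytoplasm for C1ra (0.47), F2 (0.0044), Fga (0.11), Klkb1 (0.24) and Proc (0.57) and in CryKO for F5 (0.35) and Proc (0.50), and from pre-mRNA scaling for F10 in NTI (-0.058). Past a log2 difference of 2, 5 genes remained in WT and 10 in CryKO. The ratio by genotype gave 14 calls on library size, 8 with the replicate block and 0 without the 3 WT mice. Shares of all genes are not set beside the counts in this section, so none is read as particular to these genes. DESeq2 gave 2 rhythmic genes in NTI, 4 in NAE, 3 in CTE and 1 in UTE in WT, 2, 2, 1 and 2 in CryKO NTI, NAE, CAE and UTE, and 8 genes differing by genotype in NAE. The replicate block gave 1 rhythmic gene in WT NAE (Mbl1), and leaving out the 3 WT mice gave 1 in NAE and 2 in CTE. At an adjusted p under 0.01, CTE had 0. Leaving out 1 mouse at a time gave 6 to 9 genes differing by genotype in CAE, 3 to 7 in NAE, and 14 to 16 in UTE, 0 to 8 rhythmic genes in WT CTE and 0 to 1 in the other WT populations, and 28 genes in WT nucleus against cytoplasm. Elsewhere only WT ZT0 replicate 2 was left out, with 6 genes in NTI and 8 in CTE differing by genotype, 2 in the ratio by genotype and 25 transcripts, or only CryKO ZT20 replicate 1, with 0 rhythmic genes in CryKO UTE and 0 in UTE rhythm by genotype. The block gave 29 genes in WT and 32 in CryKO nucleus against cytoplasm and 27 transcripts. The settings without the 3 mice, and those leaving out each mouse for WT CTE rhythms, were chosen after seeing the data. The cause of these changes was not tested. The WT CT libraries (7.07 to 15.3 M counts) carry the most counting error.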

Other observations

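Across the 12 WT livers, the genes most like Fgl1 in CAE, by correlation of log2 levels over 10803 genes and chosen after their values were seen, were Steap4 (0.966), Zbp1 (0.952), Nnmt (0.952), Prg4 (0.939) and Itih4 (0.939). For F13b they were Mup12 (0.963), Mup7 (0.954), Mup2 (0.943), Slco1a1 (0.941) and Mup6 (0.941). These are descriptions over 12 libraries that share their mice with every other result here.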
